A study of Mus musculus with 4 samples.

Results

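The genes described here are 34 genes of protein folding and disposal in the endoplasmic reticulum (ER), the ones usually read as targets or parts of the IRE1 and ATF6 branches of the unfolded protein response (UPR). They were listed by name: 12 chaperones and cochaperones, 6 disulfide enzymes, 9 genes of ER-associated degradation (ERAD), 3 sensors and branch factors, and 4 genes of translocation and export. All 34 of 34 had a probe that was well above background in every mouse, among 12791 named genes with a probe tested. Together they were measured by 44 probes, and 8 of the genes had several.

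The samples were brown adipose tissue (BAT) of 4 male Tg mice of the C57/BL6N strain at 8 weeks of age. Every mouse carried maP2::Fv2E-PERK, a transgene for an engineered PERK, the ER kinase of eIF2α, which the dimerizing ligand AP20187 (AP) switches on, so the integrated stress response (ISR) can be started without ER stress. One group of 2 received the vehicle (ethanol, PEG-400 and Tween-20 in water) and one group of 2 received AP, by intraperitoneal injection, and BAT was taken 12 h later. The dose of AP is 1 ng/g in the labels and 0.05 mg/kg in the legend of the study.

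The transgene is driven by a mouse aP2 (Fabp4) promoter fragment, which is active in adipocytes and is known to be active in macrophages as well. The arrays analysed here include no mouse without the transgene, so an effect of AP itself cannot be told apart from an effect of Fv2E-PERK. RNA of each mouse was hybridized to its own one-color array. A level is the processed signal on the log2 scale with the 75th percentile of that array subtracted, so it is relative to the array and can be negative. Levels of different probes are compared only as brightness, not as amounts of mRNA. A summed level is the log2 of the sum of levels on the linear scale, so the brightest probes weigh most in it. A difference is the mean of the AP group minus the mean of the vehicle group on that log2 scale.

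In the ER, chaperones such as BiP hold nascent proteins, disulfide isomerases and ERO1 oxidases form their disulfide bonds, and proteins that fail to fold are passed by ERAD through the membrane to the proteasome. When unfolded proteins build up, 3 sensors respond. IRE1 splices the mRNA of XBP1, ATF6 is cut in the Golgi to release a transcription factor, and PERK phosphorylates eIF2α, which favors translation of ATF4. Chaperone genes are known mainly as targets of ATF6, and many ERAD genes as targets of XBP1. ATF4 and DDIT3 have their own targets, of which some, such as Herpud1 and Ero1l, are ER genes as well.

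ER stress genes are known by short elements in their promoters, so the promoter windows of 5 members are shown: Hspa5, the usual reference for the ER stress element, and 4 of the 5 members with the lowest unadjusted p values. RefSeq windows of GRCm38.p6, 250 bases before to 50 bases after the start site, were held for 28 of the 34 genes. The window of Hspa5 is chr2:34771840-34772139 on the plus strand and that of Calr is chr8:84846882-84847181 on the minus strand. The window of Herpud1 is chr8:94386179-94386478 on the plus strand and that of Derl3 is chr10:75893148-75893447 on the plus strand. The window of Sel1l is chr12:91849108-91849407 on the minus strand. Each is written 5′ to 3′ on the strand of its gene, and capitals mark the bases of the motifs named below with their spacers in lower case. The last 50 bases of each window lie in the transcribed part of the gene.
Hspa5: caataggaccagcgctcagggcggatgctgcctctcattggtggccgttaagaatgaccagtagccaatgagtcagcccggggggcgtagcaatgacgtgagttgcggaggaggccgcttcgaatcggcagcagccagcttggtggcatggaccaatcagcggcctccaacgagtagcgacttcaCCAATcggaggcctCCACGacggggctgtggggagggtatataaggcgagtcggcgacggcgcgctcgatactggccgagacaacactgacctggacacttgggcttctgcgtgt
Calr: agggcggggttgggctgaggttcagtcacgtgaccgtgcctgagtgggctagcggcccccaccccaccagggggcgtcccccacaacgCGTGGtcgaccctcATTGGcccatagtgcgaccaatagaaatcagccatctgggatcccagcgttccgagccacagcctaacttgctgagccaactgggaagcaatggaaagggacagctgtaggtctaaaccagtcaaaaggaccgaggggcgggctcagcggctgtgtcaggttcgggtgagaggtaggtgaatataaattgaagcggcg
Herpud1: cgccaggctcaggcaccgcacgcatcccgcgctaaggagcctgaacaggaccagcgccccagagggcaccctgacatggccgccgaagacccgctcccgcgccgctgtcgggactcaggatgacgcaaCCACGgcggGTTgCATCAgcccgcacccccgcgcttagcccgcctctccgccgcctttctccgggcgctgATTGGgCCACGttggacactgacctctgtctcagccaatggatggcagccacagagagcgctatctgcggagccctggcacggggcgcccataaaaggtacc
Derl3: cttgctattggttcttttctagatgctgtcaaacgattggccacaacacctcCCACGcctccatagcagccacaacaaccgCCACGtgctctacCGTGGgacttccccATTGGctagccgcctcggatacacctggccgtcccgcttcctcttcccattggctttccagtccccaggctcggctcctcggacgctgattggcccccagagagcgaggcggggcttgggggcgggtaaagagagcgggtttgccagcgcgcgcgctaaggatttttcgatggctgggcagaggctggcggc
Sel1l: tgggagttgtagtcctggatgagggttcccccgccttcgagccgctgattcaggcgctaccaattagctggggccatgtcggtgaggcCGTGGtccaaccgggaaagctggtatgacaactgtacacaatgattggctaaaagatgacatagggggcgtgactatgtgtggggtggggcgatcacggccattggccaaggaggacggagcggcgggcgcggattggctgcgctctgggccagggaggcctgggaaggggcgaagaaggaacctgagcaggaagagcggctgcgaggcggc

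The motifs searched on both strands were the ER stress element ERSE (CCAAT and CCACG with any 9 bases between), its CCACG part alone, ERSE-II (ATTGG and CCACG with 1 base between), the core of the UPR element (TGACGTGG) and the C/EBP-ATF composite element (TGATGNAAT or TGATGNAAC), which ATF4 and DDIT3 are known to bind with C/EBP partners. The CCACG part lies inside the ERSE and the ERSE-II, and it shares bases with the UPR element core read on the other strand. An ERSE was found in the windows of 10 of the 28 genes, which were Calr, Canx, Creld2, Derl3, Dnajc3, Ero1lb, Hsp90b1, Hspa5, Pdia6 and Syvn1, and in 0.119% of all 32851 windows. ERSE-II was found in Herpud1 and Dnajb11, and in 0.0365% of all windows. The UPR element core was found in Sec24d alone of the members and in 0.676% of all windows. The composite element was found in Herpud1 alone of the members and in 1.77% of all windows. CCACG, inside a longer motif or not, was in the windows of 25 of the 28 genes, and in 32.8% of all windows. No window was held for Atf6, Derl1, Hspa13, Hyou1, Manf and Sec61a1.

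In the window of Hspa5 the ERSE spans bases -65 to -47 from the start site. The ERSE of Calr lies at -162 to -144 and that of Derl3 at -156 to -138, both read on the opposite strand. Herpud1 holds its composite element at -113 to -105, on the opposite strand, and its ERSE-II at -52 to -42. Sel1l has only the CCACG part, at -162 to -158. A match describes the letters in the window, and no binding was measured here.

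**Figure D1:**
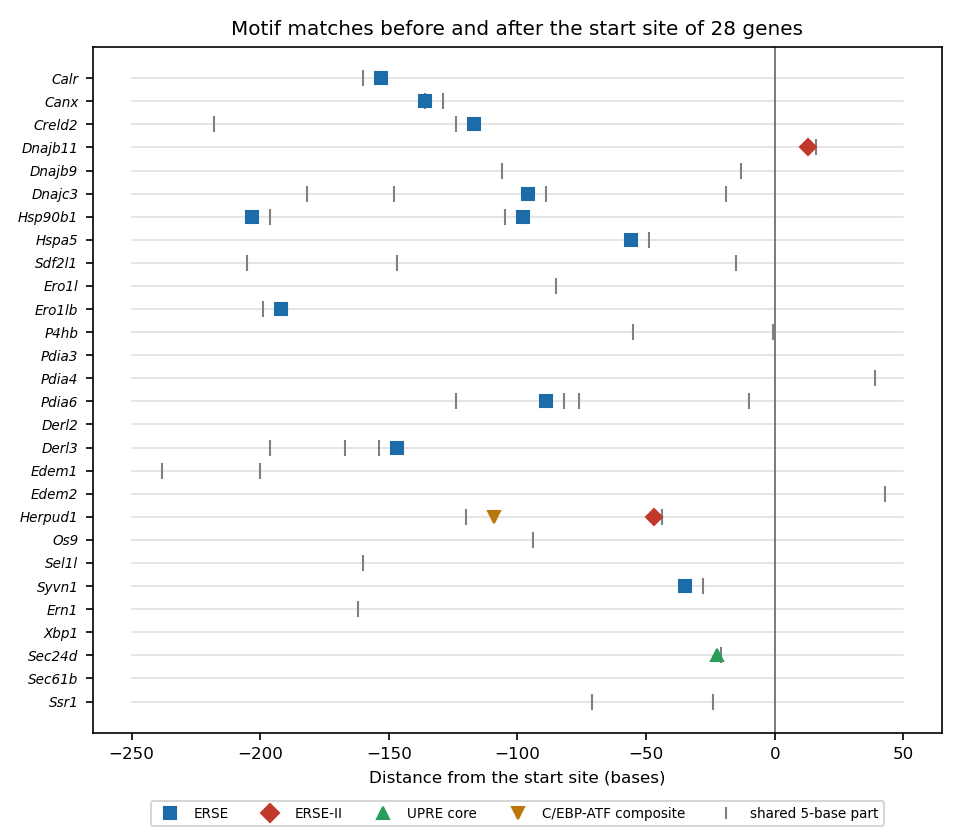
Positions of motif matches in the promoter windows of the 28 genes, the first window where a gene had several (x axis, bases from the start site; 1 line per gene, grouped by role). Squares mark the ERSE, diamonds ERSE-II, upward triangles the UPR element core, downward triangles the C/EBP-ATF composite element and ticks CCACG, the part of 5 bases shared by ERSE and ERSE-II; Herpud1 is the only gene with a composite element.

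No member passed the adjusted threshold, and the differences described below are values beside the spread of the mice. In the comparison of AP with vehicle, limma called 0 of 24972 probes at an adjusted p of 0.05 (0% of the probes tested), with 0.80 as the smallest adjusted p. The unadjusted limma p was under 0.05 for 1515 probes, and the methods' t-test gave 1478 before and 0 after adjustment. Among the 34 genes, 22 were higher and 12 were lower in the AP group, where 48.7% of all probes tested were higher. The count of 22 was 15 of 34 in the log2 table of the authors and 18 of 34 without AP-treated mouse 1. The median difference of the 34 genes was 0.09, beside -0.01 over all probes tested and 0.01 over all named genes. An unadjusted limma p under 0.05 was found for 5 of the 34, or 14.7%, beside 6.07% of all probes tested. Herpud1, Derl3 and Sel1l were higher in the AP group (3.3% of all probes tested), and Manf and Calr were lower (2.77% of all probes tested). Both AP-treated mice lay above both vehicle-treated mice for 9 genes and below them for 7 genes, so 47.1% did not overlap, beside 38.3% of all probes tested. A difference of at least 1.5-fold upward was seen for 6 genes, or 17.6%, beside 7.96% of all probes tested. These were Derl3, Herpud1, Ero1l, Ern1, Sel1l and Edem1. Downward it was seen for Manf alone, beside 7.51% of all probes tested. With a mouse left out, chosen after these counts were seen, the upward count was 2 without AP-treated mouse 2, where only Derl3 and Herpud1 stayed past 1.5-fold, and 6 or 7 without another mouse, and the downward count was 2 to 4. For any single gene the smallest p of an exact two-sided permutation test over these 4 mice is 0.333.

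**Figure D2:**
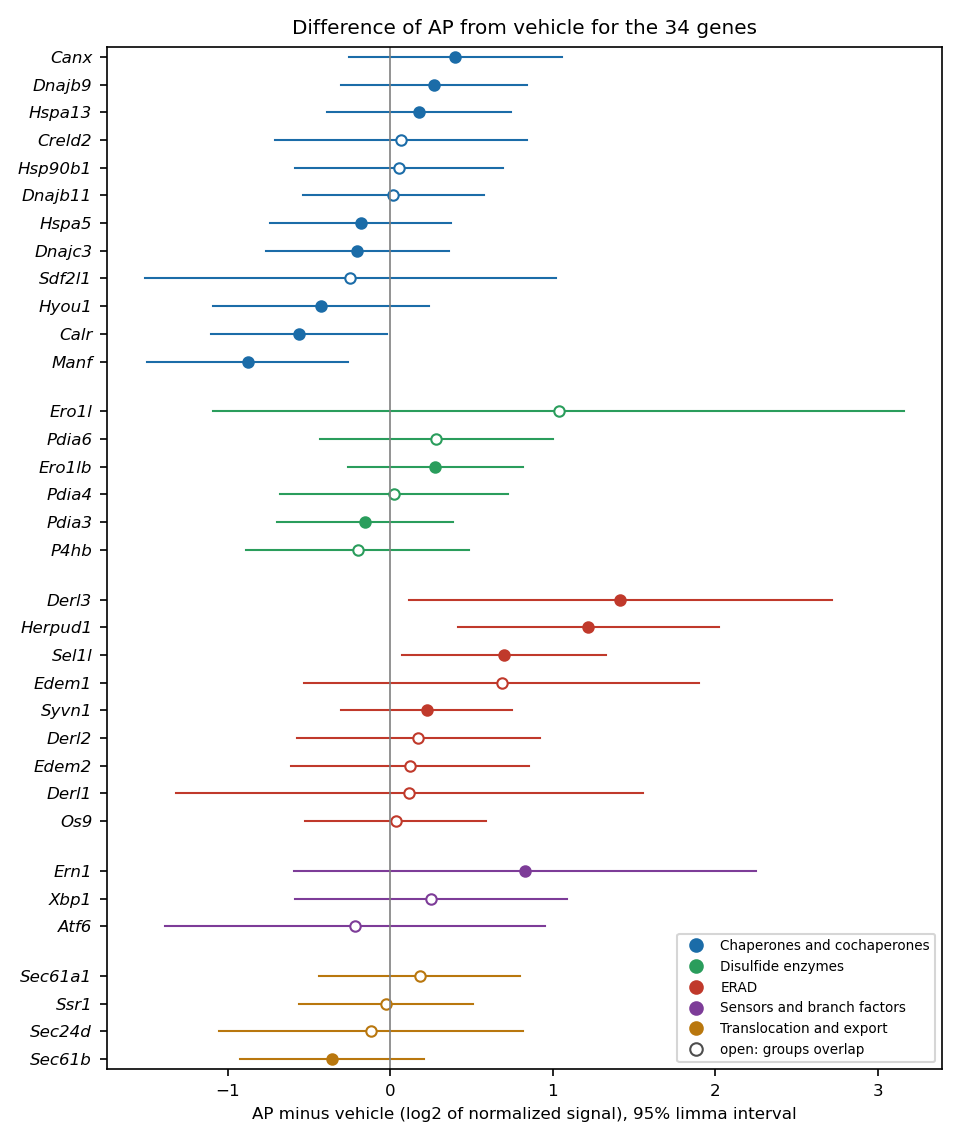
Difference of AP from vehicle for each of the 34 genes (x axis, log2 of the normalized signal) with its 95% limma interval, ordered within each role. Filled points are genes whose groups of 2 mice do not overlap, and the points of all 9 ERAD genes lie right of 0, of which Os9, Edem2 and Derl1 turned in the log2 table of the authors.

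The ERAD genes were the role in which every member was higher in the AP group, 9 of 9 with a median difference of 0.22, and 4 of them had both AP-treated mice above both vehicle-treated mice (18% of all probes tested). The direction depended on the scaling for the smallest differences: 8 of 9 were higher with normexp background correction or the 75th percentile of probes detected on all arrays, where Os9 turned, and 6 of 9 in the log2 table of the authors, where Edem2, Derl1 and Os9 turned. That table shifts the median of all probes tested to -0.17, and relative to that median the ERAD median was 0.24 in the table and 0.24 here. Leaving out vehicle-treated mouse 2 left 7 of 9 higher, without Derl1 and Derl2, and leaving out AP-treated mouse 1 left 7 of 9, without Edem2 and Os9. Without AP-treated mouse 2 it was 8 of 9, Derl1 being lower.

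Herpud1 encodes HERP, a membrane protein that organizes the HRD1 complex. Its level was 4.41 and 3.75 with vehicle and 5.41 and 5.19 with AP. The AP-treated mice lay higher than the vehicle group and closer to each other than the vehicle-treated mice did. The means were 4.08 ± 0.47 (SD, n = 2) and 5.30 ± 0.15 (SD, n = 2), and the difference was 1.22 with a standard error of 0.30, or 2.33-fold. Its 95% interval ran from 0.42 to 2.02, with an unadjusted limma p of 0.0122 and an adjusted p of 0.80. Whichever mouse was left out, the difference of Herpud1 stayed between 0.89 and 1.55. Among the windows printed above, that of Herpud1 is the one that carries both an ERSE-II and a composite element.

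Derl3 encodes a derlin, one of the membrane proteins through which ERAD substrates leave the ER, and is known as the derlin of secretory cells. Its level was -3.29 and -3.05 with vehicle and -1.08 and -2.42 with AP. The probe of Derl3 was dim, though well above background in all 4 mice. With vehicle it was about as dim as the second probe of Hspa13, at -3.08 and -3.07, which was well above background in 3 of the 4 mice. The groups did not overlap, but the AP-treated mice stood further apart than the vehicle-treated mice, with mouse 1 the higher. The difference was 1.42 with a standard error of 0.49 (2.67-fold, 95% interval 0.11 to 2.72, limma adjusted p = 0.80). It was 0.75 without AP-treated mouse 1 and 2.09 without AP-treated mouse 2. The related genes Derl1 and Derl2 had differences of 0.12 and 0.17, with overlapping groups at the probes used. A dimmer probe of Derl1 gave 0.46 with overlapping groups. Dimmer probes of Derl2 gave 0.11 with overlapping groups and 0.32 with the AP group above the vehicle group.

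Sel1l encodes the adaptor that brings substrates to the ubiquitin ligase HRD1, and Syvn1 encodes HRD1 itself. Sel1l was at 1.08 and 0.99 with vehicle and at 1.54 and 1.93 with AP. The groups were separate, and the difference was 0.70 with a standard error of 0.24 (1.63-fold, 95% interval 0.07 to 1.33, limma adjusted p = 0.80). Syvn1 was at 4.35 and 4.38 with vehicle and at 4.60 and 4.58 with AP. Its mice were almost alike within each group, and the difference was 0.22 with a standard error of 0.20 (limma adjusted p = 0.838). Syvn1 was 1 of the 3 members, of 34, with an unadjusted p under 0.05 in the methods' test named above, besides Manf and Calr. The same mark was passed by 1478 of the 24970 probes in that test, so the 3 members are not read as an excess. For Syvn1, limma, which borrows spread from all probes, gave an unadjusted p of 0.312.

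Edem1 and Edem2 encode lectins that help trim mannose from glycoproteins on the way to ERAD, and Os9 encodes a lectin that delivers them. Edem1 was at 1.27 and 2.15 with vehicle and at 1.95 and 2.84 with AP. Its groups overlapped, since vehicle-treated mouse 2 was above AP-treated mouse 1, and its difference of 0.69 had a standard error of 0.46. It was 0.24 without AP-treated mouse 2 and 1.13 without AP-treated mouse 1. Edem2 and Os9 differed by 0.12 and 0.03, with overlapping groups.

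The chaperones and cochaperones were divided, with 6 of 12 higher and 6 of 12 lower in the AP group and a median difference of -0.08. Groups were separate for 8 of the 12, beside 38.3% of all probes tested. Canx, Dnajb9 and Hspa13 were above the vehicle group, against 18% of all probes tested above, and Hspa5, Calr, Dnajc3, Hyou1 and Manf were below it, against 20.4% of all probes tested below. The count of chaperones higher in the AP group was 5 with normexp correction, where Hsp90b1 turned, 5 with quantile normalization or the 75th percentile of detected probes, where Dnajb11 turned, and 3 in the log2 table of the authors, where Hsp90b1, Dnajb11 and Creld2 turned. Relative to the median of all probes, the chaperone median was -0.07 in that table and -0.07 here. It was also set by single mice: the median was 0.13 without AP-treated mouse 2 and -0.20 without AP-treated mouse 1.

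Hspa5 encodes BiP, the ER Hsp70 chaperone and the most used readout of ER stress. Its level was 6.13 and 5.99 with vehicle and 5.80 and 5.96 with AP. The AP group lay below the vehicle group, by a margin smaller than the distance between the mice of either group. The difference was -0.18 with a standard error of 0.21 (0.882-fold, limma adjusted p = 0.869), and its 95% interval ran from -0.74 to 0.37. Hsp90b1, the gene of the ER Hsp90 GRP94, was at 4.62 and 4.79 with vehicle and at 4.95 and 4.57 with AP. The AP-treated mice lay on either side of the vehicle-treated mice, with a difference of 0.05, a standard error of 0.24 and a 95% interval of -0.59 to 0.69 (limma adjusted p = 0.973). Its sign turned with normexp correction, in the log2 table of the authors, and without vehicle-treated mouse 1 or AP-treated mouse 1.

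Manf encodes a small ER protein that binds BiP and can be secreted. Its level was 2.54 and 2.70 with vehicle and 1.91 and 1.58 with AP. The groups of Manf did not overlap, and the difference of -0.88 was the most negative among the 34 genes. Its standard error was 0.23 and its 95% interval -1.49 to -0.26 (0.545-fold, limma unadjusted p = 0.0155, limma adjusted p = 0.80). Whichever mouse was left out, the difference of Manf stayed between -1.05 and -0.71.

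Calr and Canx encode calreticulin and calnexin, the soluble and the membrane-bound lectin of one glycoprotein folding cycle, and their differences had opposite signs. Calr was at 4.38 and 4.47 with vehicle and at 3.93 and 3.80 with AP. Its groups were separate, and its difference was -0.56 with a standard error of 0.20 (0.678-fold, 95% interval -1.10 to -0.02, limma adjusted p = 0.80). Canx was at 4.40 and 4.05 with vehicle and at 4.77 and 4.49 with AP. The AP group lay higher without overlap, and the difference of Canx was 0.40 with a standard error of 0.25 (limma adjusted p = 0.801). The windows of both genes hold an ERSE.

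Hyou1 encodes GRP170, the nucleotide exchange factor of BiP. It was at -1.72 and -2.17 with vehicle and at -2.43 and -2.30 with AP. The groups did not overlap, with a difference of -0.42 and a standard error of 0.25 (limma adjusted p = 0.801).

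Several cochaperones carry a J domain, by which they work with BiP. Dnajb9, a gene much used as a readout of IRE1 and XBP1, was at 1.98 and 1.86 with vehicle and at 2.07 and 2.31 with AP. The AP-treated mice were higher, and the difference was 0.27 with a standard error of 0.22 (limma adjusted p = 0.828). A dimmer second probe of Dnajb9 gave 0.54 with overlapping groups. Dnajb11 and Dnajc3 had differences of 0.02 and -0.20.

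Sdf2l1 and Creld2, known as sensitive ER stress genes, had differences of -0.24 and 0.07. Sdf2l1 was at -0.90 and -0.03 with vehicle and at -0.21 and -1.20 with AP, so the mice of each group differed by more than the groups did. Creld2 was at 3.17 and 3.29 with vehicle and at 3.62 and 2.98 with AP, with AP-treated mouse 1 the highest and AP-treated mouse 2 the lowest. Hspa13, which encodes an Hsp70-like protein of microsomes, was at 1.172 and 1.226 with vehicle and at 1.499 and 1.254 with AP, a difference of 0.18 with a standard error of 0.21 (limma adjusted p = 0.872). A second, dimmer probe of Hspa13 ran the other way, with a difference of -0.32, and was well above background in 3 of the 4 mice. Of the genes with several tested probes, Hspa13 was the only one whose probes differed in direction.

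**Figure D3:**
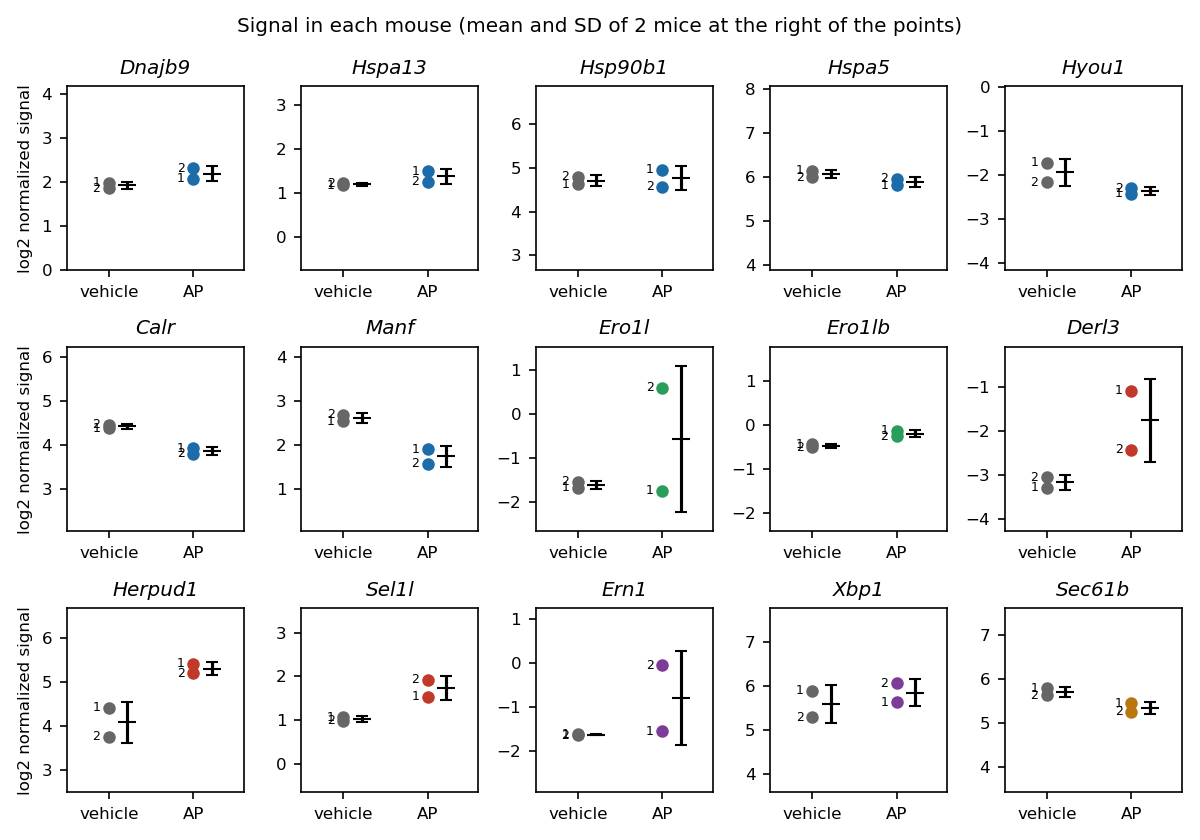
Level in each mouse for 15 members, as log2 of the normalized signal (y axis, the same span in every panel) for vehicle and AP (x axis), with the replicate number beside each point and the mean with its SD of 2 mice to the right. The AP-treated mice are close together for Herpud1, Calr and Hspa5, whereas Ero1l and Ern1 lie far above the vehicle group in AP-treated mouse 2 alone.

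Of the 6 disulfide enzymes, 4 were higher and 2 lower in the AP group, with a median difference of 0.15. Ero1l and Ero1lb encode the oxidases ERO1α and ERO1β, which pass electrons from protein disulfide isomerases to oxygen. Ero1l was at -1.67 and -1.54 with vehicle and at -1.74 and 0.60 with AP. Only AP-treated mouse 2 was high, and AP-treated mouse 1 was the lowest of the 4. The difference of 1.04 had a standard error of 0.80 and a 95% interval of -1.09 to 3.16 (limma adjusted p = 0.823), and it was -0.14 without AP-treated mouse 2.

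Ero1lb was at -0.44 and -0.51 with vehicle and at -0.14 and -0.26 with AP. Its groups did not overlap, with a difference of 0.28 and a standard error of 0.20 (limma adjusted p = 0.817). The log2 difference of Ero1l from Ero1lb within an array was -1.23 and -1.03 with vehicle and -1.61 and 0.86 with AP. This value is read across arrays only, not as the relative amount of the oxidases. It lay outside the vehicle values in both AP-treated mice, in opposite directions, and the group difference of 0.76 had an exact two-sided permutation p of 1.

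The differences of the 4 disulfide isomerases ran from -0.20 to 0.29. Pdia3, which works with calnexin and calreticulin, was at 2.42 and 2.47 with vehicle and at 2.37 and 2.21 with AP, a difference of -0.15 with separate groups. Pdia4, Pdia6 and P4hb, the gene of the founding protein disulfide isomerase, had differences of 0.02, 0.29 and -0.20, each with overlapping groups.

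Xbp1, Ern1 and Atf6 encode the factor spliced by IRE1, the sensor IRE1α and the sensor ATF6. Xbp1 was at 5.90 and 5.29 with vehicle and at 5.63 and 6.07 with AP. The groups overlapped, and the difference of 0.25 had a standard error of 0.32 (limma adjusted p = 0.88). It was -0.05 without vehicle-treated mouse 2. Whether the probe reads spliced or unspliced Xbp1 mRNA was not analysed here, and splicing of Xbp1 and cleavage of ATF6 are not measured by these arrays.

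Ern1 was at -1.62 and -1.64 with vehicle and at -1.55 and -0.05 with AP. AP-treated mouse 1 was barely above the vehicle group and AP-treated mouse 2 was far above it. The difference of 0.83 had a standard error of 0.54 and a 95% interval of -0.59 to 2.25 (limma adjusted p = 0.807), and it was 0.07 without AP-treated mouse 2. Atf6 was at -0.35 and 0.54 with vehicle and at -0.52 and 0.28 with AP, a difference of -0.22 with overlapping groups.

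Of the 4 genes of translocation and export, 1 was higher in the AP group and the median difference was -0.07. Sec61a1 and Sec61b encode subunits of the channel through which nascent proteins enter the ER. Sec61b was at 5.78 and 5.62 with vehicle and at 5.44 and 5.24 with AP. The AP group was the lower of the 2 and did not overlap, with a difference of -0.36 and a standard error of 0.21 (limma adjusted p = 0.801), and a second probe of Sec61b gave -0.20 with separate groups. Sec61a1, whose groups overlapped, had a difference of 0.18. Ssr1, a subunit of the translocon-associated complex, and Sec24d, which selects cargo for COPII vesicles, had differences of -0.02 and -0.12. Dimmer probes of Ssr1 gave -0.18 and -0.50, each with the AP group below the vehicle group without overlap.

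**Figure D4:**
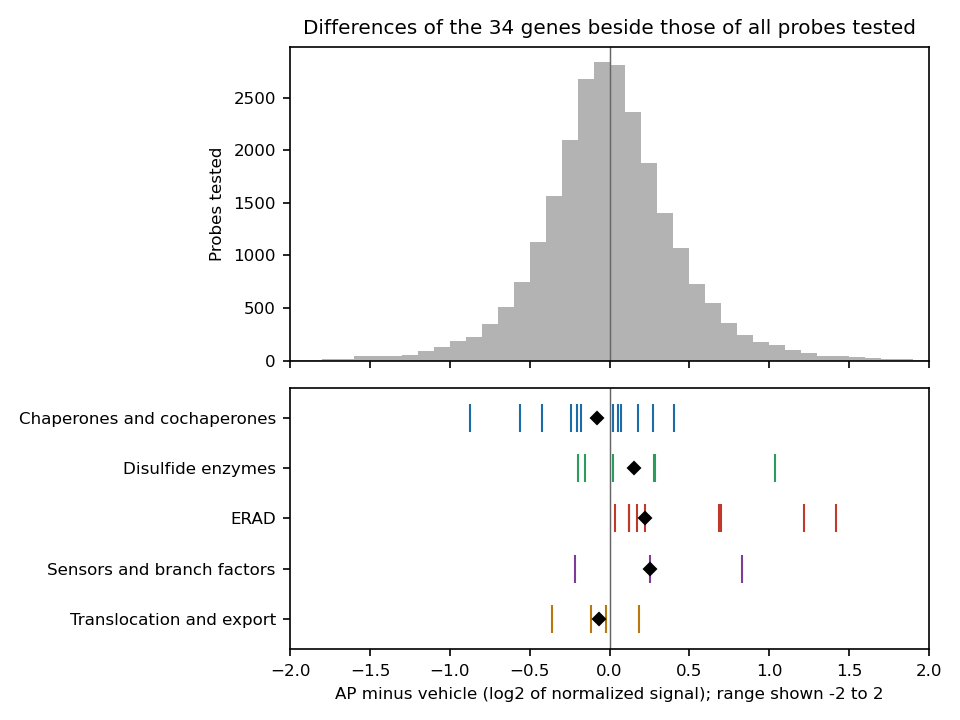
Differences of AP from vehicle (x axis, log2) for all probes tested, as a histogram of the number of probes per 0.1, and below it for the genes of each role, 1 tick per gene with a diamond at the median. The median of the ERAD genes is at 0.22 and that of the chaperones at -0.08, and the range shown is -2 to 2.

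The AP-treated mice differed from each other in how far each role lay from the vehicle mean. The median distance of the ERAD genes was 0.24 in AP-treated mouse 1 and 0.61 in AP-treated mouse 2, but gene by gene 5 of the 9 were lower in mouse 2 than in mouse 1, with a median gap of -0.016. For the chaperones it was 0.13 in mouse 1 and -0.20 in mouse 2, and 9 of the 12 chaperones were lower in mouse 2 than in mouse 1. The same order was found for 5 of the 6 disulfide enzymes and 3 of the 4 genes of translocation and export, whereas all 3 sensors and branch factors were higher in mouse 2. Of the 34 genes 12 were higher in mouse 2 than in mouse 1, beside 12806 of the 24972 probes tested. AP-treated mouse 1 held the highest value of the 4 mice for 44.1% of the 34 genes, beside 23.6% of all probes tested. AP-treated mouse 2 held the lowest value for 41.2% of them, beside 21.8% of all probes tested.

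Genes of the PERK branch were set beside these values in the same 2 mice. Of 16 such genes 15 were tested, and 14 were higher in the AP group, beside 48.7% of all probes tested. Both AP-treated mice lay above both vehicle-treated mice for 9 of the 15, beside 18% of all probes tested, and the groups overlapped for 6. Ppp1r15a and Ppp1r15b, counted as higher, differed from the vehicle mean by -0.17 and -0.14 in AP-treated mouse 1. The median difference of the 15 was 0.94. Atf3 was the gene that was lower, at 0.11 and -0.15 with vehicle and at -1.17 and -0.11 with AP. Its difference was -0.62 with a standard error of 0.41, and its groups overlapped. The median distance of the 15 genes from the vehicle mean was 0.39 in AP-treated mouse 1 and 1.34 in AP-treated mouse 2. Of the 15, 12 were higher in mouse 2 than in mouse 1, beside 12806 of the 24972 probes tested. Trib3, a pseudokinase gene induced by ATF4 and DDIT3, was at 2.78 and 2.33 with vehicle and at 6.26 and 8.01 with AP. Its difference of 4.57 was larger than that of any of the 34 genes, of which the largest was 1.42. Eif2ak3, the gene of PERK itself, differed by 0.27, and whether its probe also reads the transgene was not tested. The difference between the PERK branch genes and the 34 genes was not tested.

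**Figure D5:**
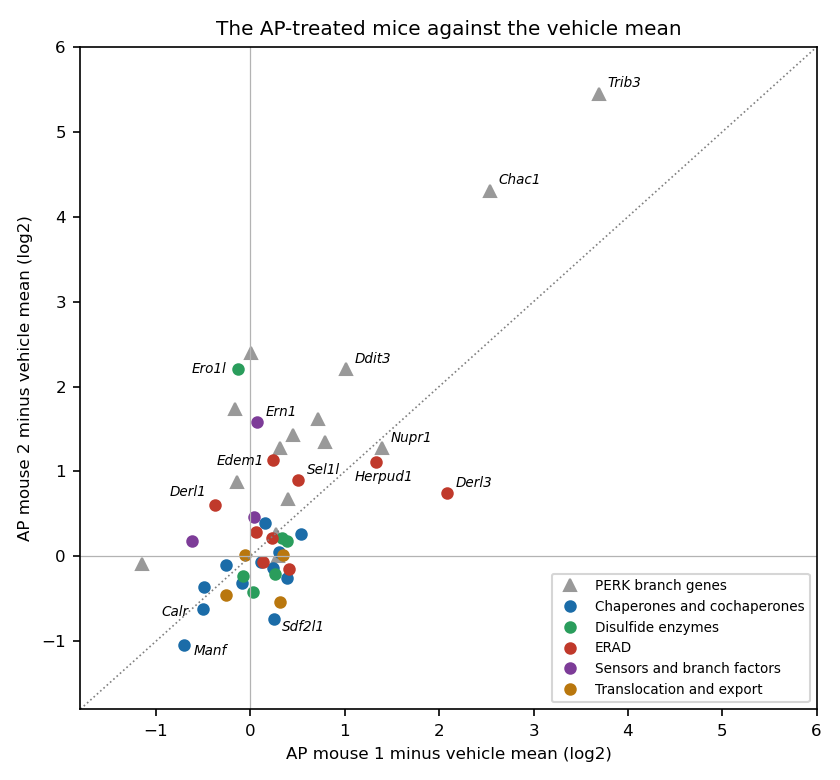
Distance of each AP-treated mouse from the vehicle mean (log2, mouse 1 on the x axis and mouse 2 on the y axis) for the 34 genes, as circles colored by role, and for 15 genes of the PERK branch, as gray triangles, with equal values on the dotted line. Ero1l and Ern1 lie near 0 for mouse 1 and far above 0 for mouse 2, Derl3 lies below the dotted line, and Manf and Calr are below 0 in both mice.

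The 10 genes with an ERSE had a median difference of 0.15 and ranged from -0.56 in Calr to 1.42 in Derl3, and 7 of them were higher in the AP group. The 18 genes with a window and no ERSE had a median of 0.08 and ranged from -0.36 in Sec61b to 1.22 in Herpud1, and 12 of them were higher. The ranges overlapped along most of their length, and this split was not tested.

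All 10 genes listed as brown adipocyte markers were well above background in all 4 mice. The list includes general adipocyte genes such as Adipoq and Fabp4, and detection alone does not identify the tissue. Elovl3, a fatty acid elongase gene among the 10, was at 6.08 and -1.07 with vehicle and at 3.52 and 5.76 with AP, so vehicle-treated mouse 2 stood far below the others. Ucp1, Cidea, Cox8b, Fabp4 and Plin1 were also lowest in that mouse, by smaller margins, whereas Prdm16 and Adipoq were highest in it. The mice differed in markers of other cells, and in bulk tissue fewer cells of a type and less RNA per cell cannot be told apart. Macrophage markers, 9 of 10 with a probe, were lower in the AP group for all 9, of which 7 were highest in vehicle-treated mouse 2 and 4 were higher with AP than in vehicle-treated mouse 1 alone, with a summed log2 level of 5.23 and 5.64 with vehicle and 4.94 and 4.85 with AP. The 12 skeletal muscle markers were all higher in the AP group, with a median difference of 0.87, and all were highest in vehicle-treated mouse 2. Their mean with AP was above vehicle-treated mouse 1 for all 12 and above vehicle-treated mouse 2 for 0. Their summed levels were 6.48 and 9.96 with vehicle and 9.30 and 8.49 with AP. Of 13 lymphocyte and antigen-presenting cell markers 12 were highest in vehicle-treated mouse 2, with summed levels of 5.62 and 7.28 with vehicle and 5.85 and 5.79 with AP. Plasma cells are rich in Derl3 and other members, and of their 6 markers the defining genes Mzb1 and Tnfrsf17 were not well above background in any mouse. The summed level of the 6 markers was 0.58 and 0.77 with vehicle and 1.08 and 0.57 with AP, and 1 of the 6, Irf4, was higher in the AP group, with a difference of 1.104. Irf4 was at -0.713 and -1.438 with vehicle and at 0.561 and -0.503 with AP. It was the largest part of the sum in AP-treated mouse 1, so the sum is not read as an amount of plasma cells. Jchain, well above background in 3 mice, was at -1.801 and -0.741 with vehicle and at -2.629 and -3.809 with AP. White adipose tissue markers had a summed level of 5.533 and 5.495 with vehicle and 5.014 and 5.194 with AP. Of these, Lep and Retn were lower without overlap (20.4% of all probes tested), with differences of -1.38 and -0.38, and Hoxc8, Hoxc9 and Hoxc10 were not well above background in any mouse. Lep was at 0.04 and 1.45 with vehicle and at -0.63 and -0.63 with AP (limma adjusted p = 0.80). The study itself reports leptin expression as unchanged by AP. Without vehicle-treated mouse 2 the difference of Derl3 was 1.54, that of Herpud1 0.89, that of Manf -0.80 and that of Calr -0.52. Without vehicle-treated mouse 1 the difference of Derl3 was 1.30, that of Herpud1 1.55, that of Manf -0.95 and that of Calr -0.61. The part of these cells in the differences was not tested. The vehicle arrays and the AP arrays lay at different positions of 1 slide, so position and treatment cannot be told apart.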

How the data were processed

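BAT of 2 vehicle-treated and 2 AP-treated Tg mice was measured on one-color arrays. The authors read the scans with Feature Extraction 10.7.1.1 and deposited, for each spot, a background-subtracted intensity on a linear scale, not normalized across arrays. A log2 table of the same arrays was also deposited, whose normalization and centring are not given in the sources used here. Differences between its columns correlated with those of the log2 intensities at an r of 0.998 to 0.999, and its column medians were -0.28, -0.16, -0.44 and -0.29.

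Control spots and outlier flags were left out, processed signals were put on the log2 scale, the 75th percentile of the non-control spots of each array was subtracted, and spots of a probe were averaged. The 75th percentile was 118.9 and 158.7 with vehicle and 127.6 and 118.5 with AP. Probes that were well above background in each mouse of the vehicle group or of the AP group were tested, 24972 of 55681, with 46.4 to 49.0% of spots well above background and 0 saturated. The test was that of limma 3.58.1 (lmFit, eBayes) in R 4.3.3, two-sided, with Benjamini-Hochberg adjustment over all probes tested at 0.05, and the scripts were tested on simulated data. Accessions gave 26582 probes a symbol of 20145 genes through RefSeq GRCm38.p6, used for names because the array design names another build. A gene was represented by its probe with the highest mean signal. Promoter windows came from the same RefSeq assembly, and for 25 of the 29 windows of members the start site is the 5′ end of the gene.

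The members and lists were chosen with earlier results of these data known. Values in every mouse and full statistics are given for Hspa5, Hsp90b1, Dnajb9, Ero1l, Ero1lb, Herpud1 and Xbp1, for the 4 largest and 4 most negative differences among members whose groups did not overlap, and for Hspa13, whose probes disagreed. Values of other members were added after they were seen. The labels number the mice and do not tie the numbers to litters or days, so p values measure the spread between these 4 samples, and precision is limited by the number of arrays. Deviations of same-numbered mice correlated at -0.13, and no block was used. Levels correlated at an r of 0.972 within the vehicle pair and 0.981 within the AP pair, and no array was a copy of another. The alternatives were other background corrections, scalings, filters and probe rules, a variance trend, the log2 table, a replicate block, leaving out each mouse and the methods' t-test.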

Additional observations from a re-analysis of the deposited data

How the results depend on the processing

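No alternative brought a probe past the adjusted threshold: it stayed at 0 under normexp correction, quantile normalization, scaling to each array's median, no filter, a stricter filter, a variance trend, the log2 table of the authors, the replicate block, the methods' t-test and each mouse left out. The unadjusted count of 1515 became 2613 with no filter on dim probes, and 1004 to 2177 with each mouse left out. With the replicate block it was 1227, and the numbers are not stated to pair the mice. A crossed pairing, chosen after seeing the data, gave 0 adjusted and 1567 unadjusted calls. Hsp90b1 turned to -0.13 with normexp correction, -0.11 in the table of the authors, -0.03 without vehicle-treated mouse 1 and -0.14 without AP-treated mouse 1. Xbp1 turned to -0.052 without vehicle-treated mouse 2 (up to 0.56 with a mouse left out), Ero1l to -0.14 without AP-treated mouse 2 (up to 2.21) and the difference of Ero1l from Ero1lb to -0.48 without it (up to 1.99), and Hspa13 to -0.072 as the mean of its probes. The causes were not tested, beyond the mouse or probe named. The median of the 34 genes was 0.18 with the median of each array, -0.075 in the table of the authors, and 0.018 to 0.14 with each mouse left out. In that table, which shifts all probes by -0.17, the medians were -0.24 for chaperones, -0.010 for disulfide enzymes, 0.064 for ERAD and -0.23 for translocation and export. With each mouse left out they ran from -0.20 to 0.13 for chaperones, -0.014 to 0.14 for disulfide enzymes, 0.24 to 0.61 for ERAD, -0.22 to 0.13 for translocation and export and 0.03 to 0.56 for sensors. The count of genes higher, 22 of 34, was 15 in that table and 18 to 23 with each mouse left out. The sign of the difference stayed the same for 19 of the 34 genes whichever mouse was left out, and not for 15. A gene whose groups do not overlap keeps its sign by construction, which holds for 16 of the 34 and for 38.3% of all probes tested. The count of 19 was not made over all probes tested, so it is not read as a trait of the 34 genes. The 75th percentile of probes well above background on all arrays, also chosen after seeing the data, left 19 of the 34 genes higher. Slide and scan as a block were not run, since there was 1 of each, and normexp used the median spot signal. Depth is set by signal over background, and all 34 genes were above it, although the probe of Derl3 was dim.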

Other observations

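A wider list of 97 other genes was set beside the 34. Most are genes of ER protein handling, with oligosaccharyltransferase, signal peptidase, COPII, further ERAD and further isomerase genes. The list also holds genes of transcription factors, such as Nfyb and Yy1, and of cell death, such as Bak1 and Bax. Of the 93 with a tested probe, 50 were higher and 43 lower in the AP group, with a median difference of 0.04. The AP group lay above the vehicle group without overlap for 25 of them (18% of all probes tested) and below it for 14 (20.4%), so 41.9% did not overlap, beside 38.3%. The largest difference was that of Pdia5, a disulfide isomerase gene, at -0.28 and 0.30 with vehicle and 1.23 and 0.57 with AP, a difference of 0.89 with a standard error of 0.35 (limma adjusted p = 0.80). Nfyb, a subunit of the NF-Y factor that binds the CCAAT part of the ERSE, differed by 0.79 with a standard error of 0.26 and was the only one of the 93 with an unadjusted limma p under 0.05, or 1.08% beside 6.07% of all probes tested. Tmbim6, the gene of the ER membrane protein BI-1, differed by 0.57. The most negative were Bak1 at -0.54, Calr3 at -0.50 and Txndc11 at -0.44.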
